A study of Mus musculus with 6 samples.

Results

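The synaptotagmin genes were followed in beta-cells that had been cultured for 5 days with or without the other endocrine cells of the islet. Members were all genes of the deposited table whose symbol is Syt followed by digits only, which gave 11 of 13535 genes (*Syt2*, *Syt3*, *Syt4*, *Syt5*, *Syt7*, *Syt9*, *Syt11*, *Syt12*, *Syt13*, *Syt14* and *Syt16*). The beta-cells came from wild-type (WT) mouse pancreas, in the study's methods from male C57BL/6JRj mice aged 12 weeks. In pseudo-islets they were reaggregated with alpha- and delta-cells, and in pseudo-beta they were reaggregated alone. Both kinds of cluster were kept in RPMI medium with serum and antibiotics, and beta-cells were then sorted again by flow cytometry for RNA extraction. Each of 3 experiments, numbered 35, 36 and 37, gave 1 library of either kind, and the number of mice behind an experiment is not given in the sources used here. The design asks which beta-cell transcripts depend on neighbouring alpha- and delta-cells.

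Synaptotagmins are membrane proteins of secretory vesicles and of the plasma membrane, with paired C2 domains in their cytoplasmic part. In the calcium-binding members, aspartates of the C2 domains hold the calcium ions that enter through voltage-gated channels, and the protein then binds phospholipids and the SNARE complex and drives membrane fusion. In beta-cells this step releases insulin granules. Other members have lost some of these aspartates. *Syt4* and *Syt11* carry a serine in place of one of them in the first C2 domain, and *Syt12*, *Syt13*, *Syt14* and *Syt16* are known as members that do not bind calcium.

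The coding stretch around that position is shown because the members are grouped by its codon further below. It was found by translating the longest annotated coding sequence of each member (GENCODE M21 on GRCm38) and searching for the residues that follow the position in the first C2 domain. Of the 11 members, 7 matched. *Syt12*, *Syt13*, *Syt14* and *Syt16* did not match, and *Syt4*, which matched with a serine codon as *Syt11* did, is not printed. Sequences run 5′ to 3′ on the coding strand, and capitals mark the codon at the position.
*Syt5*: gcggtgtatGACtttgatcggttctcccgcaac
*Syt7*: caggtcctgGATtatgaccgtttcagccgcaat
*Syt9*: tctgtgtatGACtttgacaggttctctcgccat
*Syt2*: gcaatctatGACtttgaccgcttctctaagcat
*Syt3*: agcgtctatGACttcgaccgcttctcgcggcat
*Syt11*: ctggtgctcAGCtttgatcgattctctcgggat
The codons GAC and GAT stand for aspartate and AGC for serine. The stretch lies at bases 580 to 612 of the coding sequence of *Syt5* and at bases 730 to 762 of that of *Syt11*. By this codon, 5 members (*Syt2*, *Syt3*, *Syt5*, *Syt7* and *Syt9*) had the aspartate, 2 (*Syt4* and *Syt11*) the serine, and 4 had no match. No run of identical bases shared by the transcripts of 2 members was longer than 36 bases, against read pairs of 75 bases each.

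Values were the authors' normalized counts, which summed to between 17994346 and 19635287 per library. They are not whole reads, so the depth of a library is not known, and the precision rests on the spread between the 3 libraries of a group. The beta-cell label was met, with 9 of 9 beta-cell markers in the table and *Ins2* alone at 29.7% to 30.8% of a library. A positive log2 fold change means a higher level in pseudo-islets. It is on the log2(value + 1) scale, is given with its standard error (SE), and was tested with limma over all 13535 genes with Benjamini-Hochberg adjustment and an adjusted p under 0.05 as the call. The same test with the experiment number as replicate block is quoted where it changes a call. In these data, fewer beta-cells with a transcript and less of it per cell cannot be told apart.

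The family as a whole took from 0.1155% to 0.121% of a pseudo-islets library and from 0.0934% to 0.107% of a pseudo-beta library. Compared per kilobase of merged exons, the scale used for any comparison between genes, 2 members led. *Syt13*, a member that does not bind calcium and is active in islet development, had 2361 ± 123 normalized counts per kilobase for pseudo-islets and 2274 ± 401 for pseudo-beta (SD, n = 3 each). *Syt4*, which in mature beta-cells is known to raise the calcium level needed for insulin release, had 2228 ± 84.6 normalized counts per kilobase for pseudo-islets and 1483 ± 98.9 for pseudo-beta (SD, n = 3 each). The pair stood at the 98.2 and 97.5 percentile of the levels per kilobase of 13522 genes with an annotated length.

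Below them the order was *Syt5*, *Syt11*, *Syt7* and *Syt14* in pseudo-islets, with mean levels of 671, 348, 109.9 and 39.9 normalized counts per kilobase. In pseudo-beta it was *Syt11*, *Syt5*, *Syt7* and *Syt14*, with 298, 263, 114 and 44.1. So *Syt5* and *Syt11* changed places by mean level, but on this length scale alone among those used. With no length correction, *Syt11* had the larger mean share of the summed level in both groups (8.06% against 7.11% in pseudo-islets). This was also so per kilobase of coding sequence, while per kilobase of the longest transcript *Syt5* had the larger mean share in both. Per kilobase of merged exons their pseudo-beta libraries overlapped, from 225 to 309 for *Syt5* and from 229 to 336 for *Syt11*. In pseudo-islets the lowest *Syt5* library (622 per kilobase) was above the highest *Syt11* library (369). *Syt13* and *Syt4* overlapped in pseudo-islets and did not in pseudo-beta. The members *Syt3*, *Syt9*, *Syt2*, *Syt12* and *Syt16* stood at or below the 27.8 percentile, with mean levels from 1.14 to 20.7 per kilobase. Neighbours in that order overlapped, except that in pseudo-islets *Syt2* was above *Syt12* in every library.

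**Figure D1:**
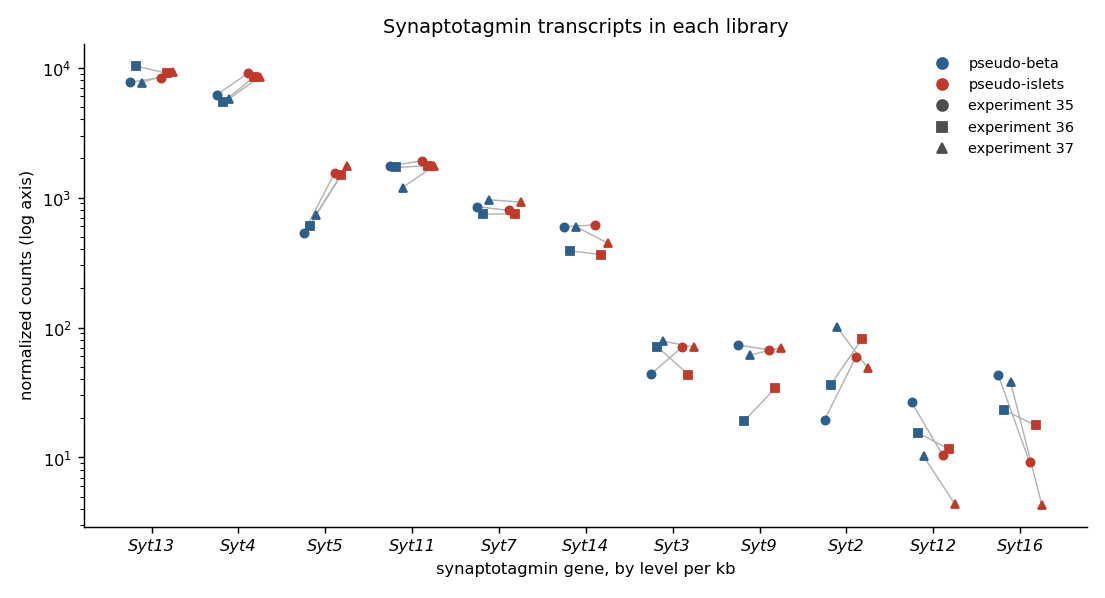
Normalized counts (log axis) of the 11 synaptotagmin genes in each of the 6 libraries, pseudo-beta in blue and pseudo-islets in red, with lines joining the libraries of 1 experiment and genes ordered by level per kilobase. *Syt4* and *Syt5* are the genes whose pseudo-islets libraries all lie above the pseudo-beta libraries, and *Syt16* is the gene whose libraries all lie below.

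*Syt5* and *Syt4* had higher means in beta-cells from pseudo-islets, with ratios of the group means of 2.55 and 1.502. *Syt13*, *Syt7* and *Syt14* had ratios of 1.04, 0.965 and 0.903. Of these, *Syt5* alone passed the test without the block, *Syt4* passed with the block only, and the rest passed in neither fit. Over the whole table, 0.0591% of genes (8 of 13535) were called, all of them higher in pseudo-islets, and *Syt5* was the 1 member among them. With the replicate block, 0.539% of genes (73 of 13535) were called, and *Syt5* and *Syt4* were the 2 members among them. By direction the block called 0.436% of genes as higher and 0.103% as lower. An unadjusted p under 0.05 was reached by 3 members in both fits, *Syt5*, *Syt4* and *Syt16*, and by 5.4% of all genes without the block and 11.9% with it. The study selected *Syt5* and *Syt4* on these same samples, so their calls are not independent evidence of their direction. Apart from these libraries, the study measured both genes by quantitative PCR in independent samples. It also reported that glucagon given to pseudo-beta raised both. Its list of genes raised by exendin-4, which acts through the GLP1 receptor, names neither. Pseudo-islets and pseudo-beta libraries had no overlap for 10.8% of all genes, 5.63% with pseudo-islets higher, and for 3 of the 11 members, 2 of them higher. *Syt16*, in this count and in that by unadjusted p, was listed through the group in which it is high. As *Syt5* and *Syt4* were selected on these samples, no excess over the whole table is read from either count.

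*Syt5* is a calcium-binding member found on dense-core vesicles. The gene (ENSMUSG00000004961) lies on chromosome 7 of GRCm38 from 4539765 to 4547541, on the minus strand, with no other annotated gene overlapping it. Its normalized counts in experiments 35, 36 and 37 were 1554, 1479 and 1758 for pseudo-islets and 535, 608 and 735 for pseudo-beta. The means were 1597 ± 144 and 626 ± 101 (SD, n = 3 each). Every pseudo-islets library was above every pseudo-beta library, and experiment 37 was the highest in both groups. Within experiments the ratio was 2.91, 2.43 and 2.39. On the log2 scale the change was 1.36 (SE 0.17, 95% interval 0.99 to 1.73, adjusted p in limma 0.0384, and 0.000402 with the block), higher in pseudo-islets in 3 of 3 experiments. *Syt5* ranked 3 of 13535 genes by p, and 5 with the replicate block.

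The call of *Syt5* without the block was lost when any 1 of 5 of the 6 libraries was left out, while its size changed little. With 1 library left out the log2 fold change ran from 1.25 to 1.48. In limma the adjusted p was 0.267, 0.285 and 0.083 when the pseudo-islets library of experiment 35, 36 or 37 was dropped, 0.137 and 0.147 when the pseudo-beta library of experiment 35 or 36 was dropped, and 0.00818 when that of experiment 37 was. With the replicate block and 1 experiment left out it was between 8.92e-05 and 0.00622. The block fit has 2 residual degrees of freedom with all 6 libraries, and fewer with 1 experiment left out, so it leans on the prior variance. With the block and the same prior variance for every gene (chosen after seeing the data), the adjusted p of *Syt5* in limma was 0.464.

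*Syt4* (ENSMUSG00000024261) lies on chromosome 18 from 31437808 to 31447406, on the minus strand, with the antisense gene *Gm26658* on the opposite strand. Its normalized counts in experiments 35, 36 and 37 were 9048, 8448 and 8513 for pseudo-islets and 6171, 5404 and 5737 for pseudo-beta. The means were 8669.7 ± 329 and 5770.5 ± 385 (SD, n = 3 each). Every pseudo-islets library was above every pseudo-beta library, and experiment 35 was the highest in both groups. Within experiments the ratio was 1.47, 1.56 and 1.48. On the log2 scale the change was 0.59 (SE 0.11, 95% interval 0.34 to 0.84), with an adjusted p = 0.271 in limma without the block and 0.00305 with it, and higher in pseudo-islets in 3 of 3 experiments. *Syt4* ranked 17 of 13535 genes by p, and 20 with the block. With the block and 1 experiment left out, the adjusted p in limma was between 0.00738 and 0.0388. It was 0.510 with the block and the same prior variance for every gene (chosen after seeing the data), so the call rests on the prior variance used.

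The *Syt4* locus has an annotated antisense transcript and the strand setting of the counting is not given in the sources used here, so reads of the pair cannot be told apart.

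*Syt13* (ENSMUSG00000027220), on chromosome 2 from 92915098 to 92956058 with no overlapping gene, is the most abundant member per kilobase. Its normalized counts in experiments 35, 36 and 37 were 8362, 9013 and 9261 for pseudo-islets and 7715, 10293 and 7652 for pseudo-beta. The libraries of the groups overlapped, and pseudo-beta of experiment 36 was the highest of all 6. The change was 0.07 on the log2 scale (SE 0.14), with a 95% interval in limma between 0.846-fold and 1.297-fold.

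*Syt7*, the high-affinity calcium sensor that promotes glucose-stimulated insulin release, showed no detectable difference at this number of samples. The gene (ENSMUSG00000024743) lies on chromosome 19 from 10389090 to 10453180. It overlaps the annotated gene *AC124169.1* on the same strand and the lincRNA *Gm26859* on the opposite strand. Normalized counts of *Syt7* in experiments 35, 36 and 37 were 796, 748 and 924 for pseudo-islets and 851, 745 and 960.1 for pseudo-beta. The groups overlapped, and in both of them experiment 37 was the highest and experiment 36 the lowest. The change was -0.05 on the log2 scale (SE 0.17), with a 95% interval in limma from -0.42 to 0.32, or between 0.748-fold and 1.25-fold.

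*Syt11* (ENSMUSG00000068923), on chromosome 3 from 88744700 to 88775164, is the close relative of *Syt4* that shares its serine codon. Its normalized counts in experiments 35, 36 and 37 were 1919.6, 1761 and 1748 for pseudo-islets and 1749.6, 1703 and 1194 for pseudo-beta. Pseudo-islets had the higher value in 3 of 3 experiments, and the groups overlapped by a narrow margin. The change of 0.24 on the log2 scale (SE 0.17, 95% interval -0.13 to 0.62) did not pass the test, with an adjusted p = 0.989 in limma and 0.445 with the block. The value rested on 1 library, since it became 0.07 when the pseudo-beta library of experiment 37 was dropped.

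*Syt14* (ENSMUSG00000016200), on chromosome 1 from 192891233 to 193035775 and known as a member that does not bind calcium, had normalized counts of 617, 363 and 447 for pseudo-islets and 595, 389.7 and 595 for pseudo-beta. Its groups overlapped, and the change was -0.15 on the log2 scale (SE 0.25).

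Among the 5 members with a mean under 100 normalized counts, *Syt2* and *Syt9*, fast calcium sensors of regulated exocytosis, and *Syt3*, a high-affinity calcium sensor, had 19.0 to 100.5 normalized counts in a library. Their groups overlapped, and the direction differed between experiments for each of them. *Syt2* had 59.5, 81.9 and 48.5 for pseudo-islets and 19.6, 36.3 and 100.5 for pseudo-beta, so the pseudo-beta of experiment 37 alone was above all pseudo-islets libraries. Changes on the log2 scale were 0.56 (SE 0.55) for *Syt2*, -0.06 (SE 0.38) for *Syt3* and 0.29 (SE 0.54) for *Syt9*, so that a change of the size seen for *Syt4* would not be detectable in them. The *Syt2* value rested on single libraries, as it became 0.03 when the pseudo-beta library of experiment 35 was dropped and 1.18 when that of experiment 37 was.

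*Syt16* (ENSMUSG00000044912), on chromosome 12 from 73997661 to 74273267 with the antisense gene *Gm29587* overlapping it, was the member whose pseudo-islets libraries all lay below those of pseudo-beta. Its normalized counts in experiments 35, 36 and 37 were 9.17, 17.7 and 4.32 for pseudo-islets and 42.7, 23.1 and 37.9 for pseudo-beta. The groups did not overlap, which was the case in this direction for 5.13% of all genes. The change of -1.78 on the log2 scale (SE 0.61) did not pass the test, with an adjusted p = 0.851 in limma and 0.303 with the block. Every listed gene reached 10 normalized counts in 3 or more libraries, and *Syt16* reached that level in all 3 pseudo-beta libraries and in 1 of pseudo-islets, so it was listed through the group in which it is high. *Syt12*, also a member that does not bind calcium, ranged from 4.37 to 11.6 in pseudo-islets and from 10.2 to 26.6 in pseudo-beta. It was lower in pseudo-islets in 3 of 3 experiments, with overlapping groups and a change of -0.91 on the log2 scale (SE 0.66).

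**Figure D2:**
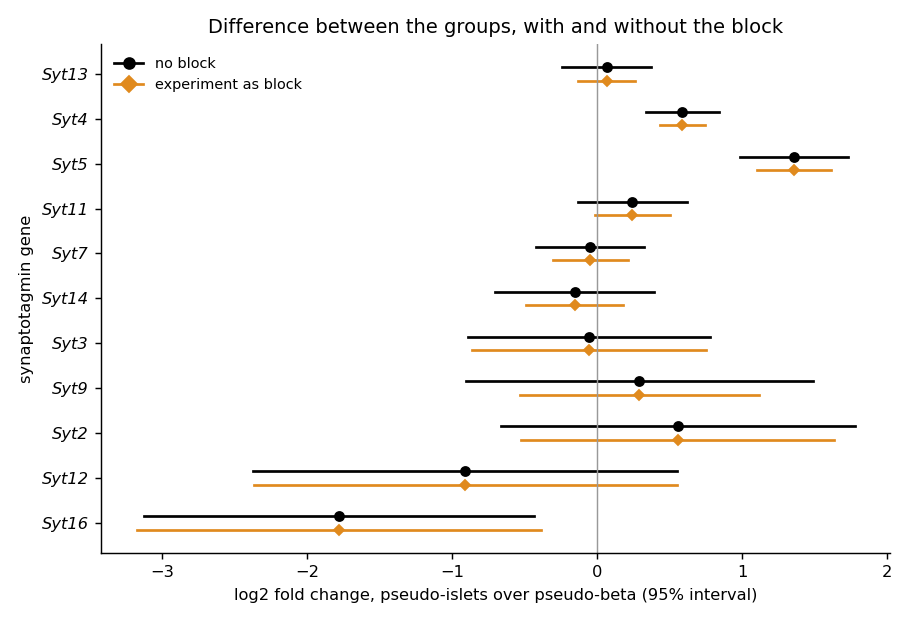
Log2 fold change of each synaptotagmin gene, pseudo-islets over pseudo-beta, with its 95% interval from limma without a block (black circles) and with the experiment as block (orange diamonds). The intervals of *Syt5* (0.99 to 1.73 without the block) and *Syt4* (0.34 to 0.84) lie above 0, that of *Syt16* lies below 0, and the others span 0. Without the block *Syt5* alone passed the adjusted test. *Syt4* passed it with the block only, and *Syt16* in neither fit.

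The sum of the 11 members was higher in pseudo-islets in each experiment, with 22514, 22002 and 22849 normalized counts against 17822, 19308 and 17162 in pseudo-beta, a ratio of 1.26, 1.14 and 1.33. Of the mean difference of 4358 normalized counts, *Syt4* made up 66.5% and *Syt5* 22.3%. On the per-kilobase scale their parts were 58.2% and 31.9%. The other 9 members together had 11912 to 12577 normalized counts in pseudo-islets and 10690.0 to 13297 in pseudo-beta, and so overlapped. The sum and the shares are scores over members chosen with results known, so they are described with no test.

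As a share of the summed level per kilobase, *Syt5* went from 5.85% ± 1.18 (SD, n = 3) in pseudo-beta to 11.6% ± 0.800 (SD, n = 3) in pseudo-islets. The difference was 6.20, 5.68 and 5.25 percentage points in experiments 35, 36 and 37. Without a length correction the *Syt5* share was 3.48% ± 0.701 and 7.11% ± 0.517 (SD, n = 3 each), so the size of the share depends on the length used, and the groups did not overlap on either scale.

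For *Syt4* the share per kilobase was 33.0% ± 3.97 (SD, n = 3) in pseudo-beta and 38.4% ± 1.70 (SD, n = 3) in pseudo-islets, with differences of 4.24, 9.65 and 2.47 points. The mean difference of 5.45 points became 3.21 when the pseudo-beta library of experiment 36 was dropped. *Syt13* took the largest share in pseudo-beta, 50.1% ± 5.27 (SD, n = 3), and 40.7% ± 1.93 (SD, n = 3) in pseudo-islets, with differences of -8.08, -14.0 and -5.99 points. The groups did not overlap for the shares of *Syt5*, *Syt4* and *Syt13*, nor for the shares of *Syt12* and *Syt16*, each a small part of the total. A share of *Syt13* can be lower at the same level of *Syt13* because shares sum to the whole, and its own level had overlapping groups. *Syt11* had 6.56% ± 1.14 and 5.995% ± 0.364, and *Syt7* 2.54% ± 0.477 and 1.89% ± 0.168 (SD, n = 3 each), with overlapping groups.

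**Figure D3:**
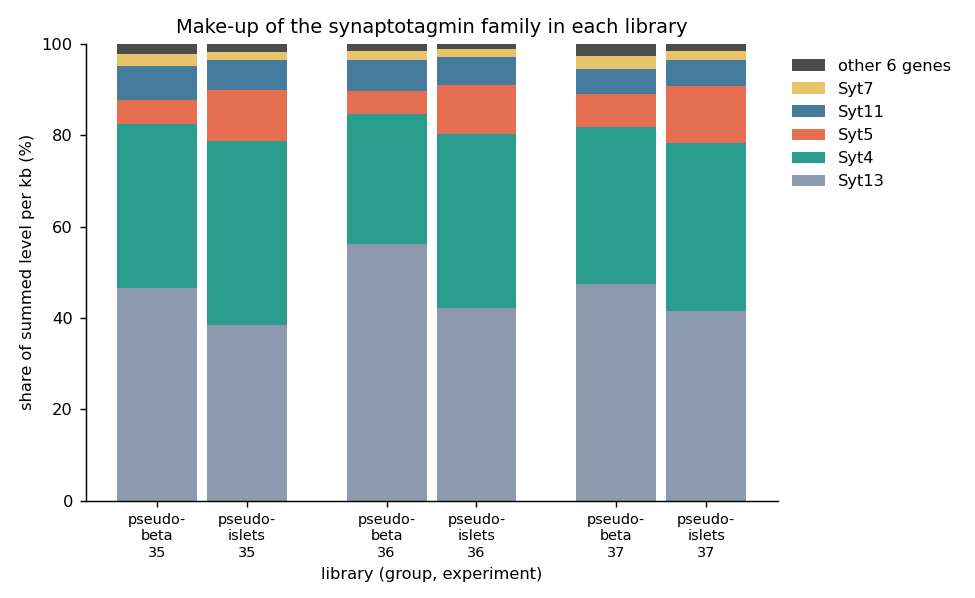
Share (%) of the summed synaptotagmin level per kilobase of merged exons taken by the 5 leading members and by the other 6 genes together, in stacked bars for each library and paired by experiment. The *Syt5* band is wider in pseudo-islets in all 3 experiments (11.6% against 5.85% on average) and the *Syt13* band is narrower (40.7% against 50.1%).

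Grouped by the codon of the first C2 domain, the 5 members with the aspartate took 14.0%, 13.3% and 15.3% of the summed level per kilobase for pseudo-islets of experiments 35, 36 and 37 and 8.48%, 7.94% and 11.5% for pseudo-beta. On this scale *Syt5* was the largest part of that share in all 6 libraries, and the groups did not overlap. *Syt4* and *Syt11*, with the serine, took 44.4% ± 2.06 for pseudo-islets and 39.5% ± 4.23 for pseudo-beta (SD, n = 3 each), with overlapping libraries. The 4 members with no match took 41.4% ± 1.75 and 51.2% ± 4.95 (SD, n = 3 each), nearly all of it *Syt13*, and did not overlap. Which of the first pair of classes separated the groups depended on the length scale. Without a length correction the aspartate members overlapped, with 10.8% to 12.6% in pseudo-islets against 7.66% to 11.3%, and *Syt7* took more than *Syt5* in every pseudo-beta library. The serine members then did not overlap, with 44.9% to 48.7% against 36.8% to 44.4%. Among members with the aspartate, *Syt5* alone was called, and the serine members *Syt4* and *Syt11* differed in call with the block.

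Ratios between members within a library do not depend on the scaling between libraries, and all 55 pairs were compared. The log2 ratio of *Syt5* to *Syt7* was 0.93 to 0.98 in pseudo-islets and -0.67 to -0.29 in pseudo-beta, a difference of 1.41, or 2.65-fold. That of *Syt5* to *Syt4* was -2.54 to -2.27 in pseudo-islets and -3.53 to -2.96 in pseudo-beta, a difference of 0.77, or 1.71-fold, with the same sign in 3 of 3 experiments. So *Syt5* differed by more than *Syt4* between the groups in every experiment, by 0.64 to 0.99 on the log2 scale.

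The log2 ratio of *Syt4* to *Syt13* differed by 0.52 (1.44-fold) and that of *Syt4* to *Syt7* by 0.64 (1.56-fold), between 0.63 and 0.65 in each experiment. Each of these 4 ratios had no overlap between the groups and a two-sided exact permutation p = 0.1, which is the smallest that 3 libraries against 3 can give, so none can pass a threshold of 0.05 or an adjustment over the pairs. The ratio of *Syt5* to another member did not overlap for 8 of 10 pairs, all but those with *Syt2* and *Syt9*, and the ratio of *Syt4* for 6 of 10. For the 36 pairs that hold neither gene it did not overlap for 8, each of which holds *Syt12* or *Syt16*. These members have low counts, and *Syt16* was listed through the group in which it is high. Ratios to *Syt12* and *Syt16* are also in the counts for *Syt5* and *Syt4*. No share over pairs of other genes was computed. The ratio of *Syt4* to its relative *Syt11* overlapped between the groups and differed by 0.02 to 0.60 within experiments (exact permutation p = 0.3).

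**Figure D4:**
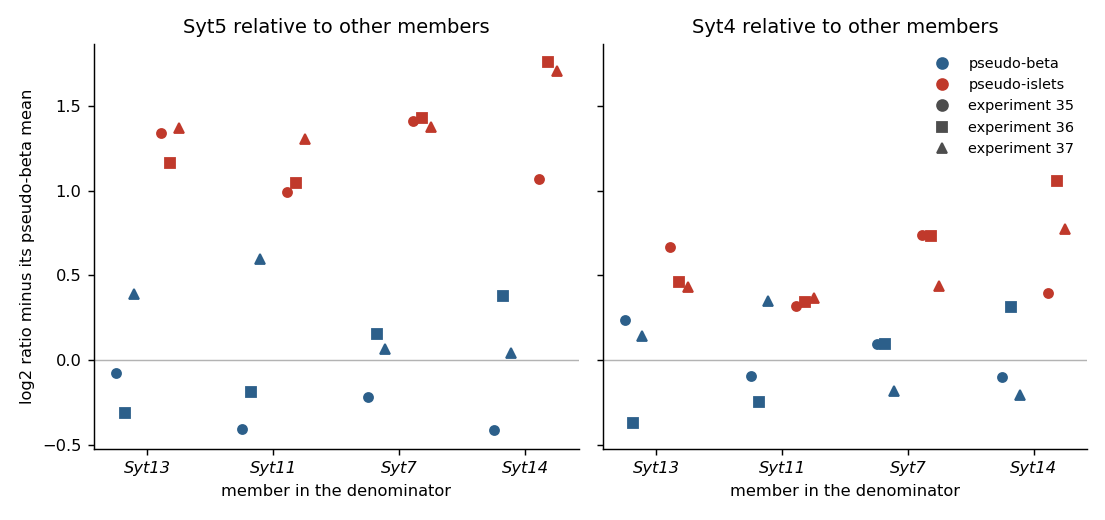
Log2 ratio of *Syt5* (left) and *Syt4* (right) to *Syt13*, *Syt11*, *Syt7* and *Syt14* in each library, minus the mean of that ratio in pseudo-beta, with pseudo-beta in blue, pseudo-islets in red and 1 symbol per experiment. All *Syt5* ratios of pseudo-islets lie above those of pseudo-beta, and the *Syt4* ratios do so except for that to *Syt11*.

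*Syt5*, called in both fits, and *Syt4*, called with the block only, were compared with other genes over the 6 libraries. The genes most like each were sought by the root mean square difference of log2(value + 1), each gene centred on its own mean. The search covered 10576 other genes whose mean reached 50 normalized counts. For *Syt5* the nearest was *Fh1*, the gene of fumarate hydratase, with a root mean square difference of 0.146 and means of 3855 ± 391.9 and 1806 ± 430.3 normalized counts in pseudo-islets and pseudo-beta (SD, n = 3 each). The study had selected *Fh1* on these samples as well. *2200002J24Rik* at 0.231 and *Gm50353* at 0.253 followed. For *Syt4* the nearest were *Pigf*, which acts in the synthesis of membrane anchors, at 0.0561, *Msmo1*, a cholesterol synthesis enzyme, at 0.0612 and *Dynlt3*, a dynein light chain, at 0.0711. All 6 had higher means in pseudo-islets, as the choice by likeness fixes.

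Related C2-domain proteins were taken from a list of 20 genes, of which 10 were in the table. Over the whole table, 0.0591% of genes were called without the replicate block and 0.539% with it. Of the 10, 1 was called as higher in pseudo-islets and 0 as lower, with and without the block. Their median log2 fold change was 0.15 against 0.01 for all genes. The called gene was *Fer1l6*, a ferlin with several C2 domains, with normalized counts in experiments 35, 36 and 37 of 1549, 1473 and 1080 for pseudo-islets and 507, 566 and 517 for pseudo-beta. The change was 1.35 on the log2 scale (SE 0.18, adjusted p in limma 0.0412), and experiment 37 was the lowest for *Fer1l6* in pseudo-islets and the highest for *Syt5*. *Esyt1*, which tethers the endoplasmic reticulum to the plasma membrane, had the lowest log2 fold change of the list, -0.80 (SE 0.28, adjusted p in limma 0.862), with overlapping groups.

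The proteins that synaptotagmins work with, namely SNAREs, their Munc18 and Munc13 partners, complexins and synaptic vesicle proteins, were taken from a list of 28 genes with 24 in the table. None was called in limma with or without the block, and the median log2 fold change was 0.07 against 0.01 for all genes. An unadjusted p under 0.05 was reached by 1 of the 24 without the block and by 2 with it. Over all genes the shares were 5.4% and 11.9%. Without the block that gene was *Vamp7*, a vesicle SNARE, with means of 1831 ± 110.0 and 1443 ± 211 normalized counts in pseudo-islets and pseudo-beta (SD, n = 3 each). *Cadps2*, a priming factor, had the highest log2 fold change at 0.68 (SE 0.63) and *Sv2b*, a synaptic vesicle protein that synaptotagmin binds, the lowest at -0.45 (SE 0.47), both among genes with a mean of 50 or more. *Snap25* and *Vamp2*, which form the SNARE bundle with syntaxin, had values of 0.09 and 0.00. The groups did not overlap for 4 of the 24, against 10.8% of all genes.

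The hormone genes of alpha- and delta-cells moved with the groups. Of 10 alpha-cell markers 5 were in the table, and their sum was 5994 to 10206 normalized counts in pseudo-islets and 3395 to 4690.0 in pseudo-beta. *Gcg* was at 1763, 941 and 2094 for pseudo-islets and at 36.1, 14.1 and 0 for pseudo-beta, and *Irx1* and *Irx2* are not in the table. Of 5 delta-cell markers 2 were in the table, with sums of 369 to 532 and 249.5 to 273. *Sst* alone differed, since *Rbp4* was lower in pseudo-islets in 2 of 3 experiments (ratio of means 0.992). *Sst* was at 146 to 210.2 in pseudo-islets and at 0, 0 and 4.74 in pseudo-beta. Of 6 immune markers *Cd68* and *C1qa* were in the table, and their sum was 1656 to 2675 against 988 to 1416, nearly all of it *C1qa* (adjusted p in limma 0.379, and 0.00305 with the block), while *Ptprc* is not in the table. *Ppy*, of the PP-cells, ranged from 383 to 4172 and from 219 to 1650.1 with overlapping groups, and was higher in pseudo-islets within each experiment by 2.53-fold, 1.75-fold and 2.45-fold (adjusted p in limma 0.990, and 0.00267 with the block). The block also added the calls of *Pyy*, of the same cells (0.983 and 0.0259), and of the alpha-cell marker *Ttr* (0.848 and 0.0303). No acinar, stromal or endothelial marker of the lists was in the table. The sums were 5445 to 6129 and 4391 to 6891 for 3 of 4 ductal markers, and 110.1 to 180 and 129 to 147 for 2 of 3 Schwann cell markers. The part of these cells in the results on *Syt4* and *Syt5* was not tested.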

How the data were processed

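RNA of sorted beta-cells was measured in 3 libraries of pseudo-islets and 3 of pseudo-beta. For each library the authors used 5 ng of RNA and removed ribosomal sequences, aligned 75-base read pairs with STAR (2.7.6a, per the labels) to GRCm38, quantified genes with RSEM (1.3.1) and normalized with DESeq2 (1.26.0). The deposited signal is these normalized counts. The authors' own log2 fold changes, test score and p-values in the deposited table were not used. Among values between 0.3 and 40, at most 25.2% to 42.9% per library were whole multiples of any 1 step, within 0.02 of it, so no whole reads were recovered. All 13535 genes reached 10 normalized counts in 3 or more libraries.

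The comparison used limma 3.58.1 in R 4.3.3 on log2(value + 1), with a prior variance following mean expression and Benjamini-Hochberg adjustment, and was tested on simulated data. Because replicates carry experiment numbers, the fit was repeated with the experiment as a replicate block. Deviations from the group mean correlated across genes at 0.119, 0.121 and 0.325 within experiments 35, 36 and 37 and at -0.203 to 0.0922 between experiments. The value of 0.0922, for pseudo-islets of 35 with pseudo-beta of 36, was close to those within 35 and 36. The correlations thus set apart experiment 37 alone, and the pairing rests on the experiment numbers in the labels. Lengths, coordinates, overlaps and coding sequences come from GENCODE M21. The genes named are all members, list genes called in either fit, the highest and lowest of each list with a mean of at least 50, and the 3 genes nearest to each called member. Markers are given as lists, with *Gcg*, *Sst* and *Ppy* by name. *Vamp7*, *Snap25*, *Vamp2*, *C1qa*, *Cd68*, *Rbp4*, *Pyy* and *Ttr* were named after their values were seen. Members and lists were chosen with earlier results of these data known.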

Additional observations from a re-analysis of the deposited data

How the results depend on the processing

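The 3 libraries of a group and the unknown read depth limit what can be called. *Syt5* and *Syt4* were higher in pseudo-islets under all 19 alternatives, with log2 fold changes of 1.25 to 1.48 and 0.48 to 0.64 and adjusted p in limma of 8.14e-05 to 0.464 and 0.00135 to 0.9996, and they were called in 9 and 6 of them. The pairing by the replicate block added the call of *Syt4* and changed no other member's call. The number of members called was 1 as reported, 2 with the replicate block, also with scaling without the 10 most abundant genes or with a minimum of 10 in every library, and 0 with a pseudocount of 0.1, scaling without the 10 most abundant genes, quantile normalization or the same prior variance for every gene, the last also with the block (chosen after seeing the data). Between 2 and 4 members had an unadjusted p under 0.05 where 0 were called. The number of members called was 0 to 1 with 1 library left out, and 2 with 1 experiment left out of the block.

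The C2-domain relatives called were 0 instead of 1 under the same 5 settings that gave 0 members, 0 to 1 with 1 library left out and 1 to 2 with 1 experiment left out of the block. The genes called over the whole table were 8 as reported, 73 with the replicate block, 82 and 118 with the block and either scaling without the 10 most abundant genes or at least 10 in every library, 1 with a pseudocount of 0.1, 2 with that scaling, quantile normalization or the same prior variance, and 0 with that variance and the block, where 1136 had an unadjusted p under 0.05. They were 0 to 13 with 1 library left out and 28, 73 and 45 without experiment 35, 36 or 37 in the block.

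The *Syt5* share difference of 5.71 percentage points was 3.63 with no length correction, 7.27 per longest transcript, 4.03 per coding sequence and 5.26 to 6.39 with 1 library left out. That of *Syt4*, 5.45 points, was 3.21 to 6.97 with 1 library left out. That of *Syt7* was -0.65 and became -1.08 with no length correction. Signs of members that were not called turned for *Syt3* (0.005 by quantile normalization, 0.27 without experiment 36 in the block, -0.31 to 0.17 with 1 library left out), *Syt13* (-0.017 by quantile normalization, -0.038 without experiment 37 in the block, -0.007 to 0.207 with 1 library left out), *Syt7* (-0.141 to 0.041), *Syt9* (-0.30 to 0.65) and *Syt14* (-0.359 to 0.023 with 1 library left out). The cause was not tested.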
